A study of Mus musculus with 6 samples.

Results

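Helper effector cytokines are the secreted proteins by which CD4+ T helper cells act on other cells, and this account follows 9 of their genes, Ifng, Tnf, Il2, Il21, Il17a, Csf2, Il4, Il13 and Il5, in regulatory T cells (Treg). The genes were chosen by name from a table of 29199 mouse genes, and all 9 were found in it. The Treg were of wild-type (WT) genotype and carried a Foxp3-Thy1.1 reporter on the C57BL/6 (B6) background. They were expanded in culture with anti-CD3/CD28 beads, 500 IU/mL recombinant human IL-2 and 0.1 ng/mL TGFb 1. The bead stimulation was removed after 3 days, and the cells were cultured for 5 to 7 further days. They were injected together with naive conventional CD4+ T cells (Tconv) into lethally irradiated B6 hosts that received bone marrow of B6 and semi-allogeneic B6D2F1 donors in equal parts, and were sorted again from the spleen 3 weeks later as Thy1.1+ cells. In one group of 3 libraries the co-injected Tconv were WT (Treg with WT Tconv), and in the other group of 3 they lacked the heterochromatin protein HP1α (Treg with HP1α KO Tconv). The KO Tconv came from a line made by crossing Hp1a flox mice to CMV-cre, a driver active in all tissues including the germline. The WT Tconv came from control littermates (Hp1a+/+) of the KO mice, bred by intercrossing heterozygotes. Both genotypes therefore had mixed 129/Sv and C57BL/6 ancestry, and the mice were 6 to 12 weeks old. Every Treg library was therefore WT, and the comparison asks whether Treg cytokine transcripts followed the genotype of the Tconv injected beside them. Nothing in the labels says whether the 3 libraries of a group came from separate hosts, so p-values measure only the spread between these libraries.

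Treg keep other T cells in check, and their lineage factor Foxp3 is known to hold down Il2 and several other helper cytokine genes that Tconv use. Helper cells are grouped by these products: Th1 cells make interferon-γ, Th2 cells make IL-4, IL-5 and IL-13, Th17 cells make IL-17A, and follicular helper cells make IL-21. Many cytokine transcripts are short-lived, because AU-rich stretches in the 3′ untranslated region are bound by proteins that start mRNA decay, and most are made in quantity only after the T cell receptor is triggered.

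The deposited estimated counts summed to between 96318913 and 119078882 per library in Treg with WT Tconv and between 87421755 and 97214397 in Treg with HP1α KO Tconv, so that 3 counts, taken as the detection floor, correspond to 0.0256 to 0.0340 counts per 1000000 (CPM). The 8 Treg markers checked were high in every library, with Foxp3 at 158 to 254 CPM and Ikzf2 at 1484 to 1930 CPM. Ctla4 was lower with HP1α KO Tconv (806 to 1047 CPM) than with WT Tconv (1093 to 1322 CPM), without overlap. The same held for Ikzf4 (79.1 to 87.3 against 90.8 to 94.0 CPM), whereas Izumo1r was higher (328 to 340 against 259 to 286 CPM). Group ranges of the other Treg markers overlapped. Over all 18321 genes tested, 23.0% had groups that did not overlap, on CPM of scaled library totals. No p-value is given for the markers. WT Tconv replicate 3 stood apart from the rest: its summed neutrophil markers reached 1847 CPM against at most 229.9 CPM in the others, its red cell markers 6155 against at most 736 CPM, its macrophage markers 196 against at most 54.4 CPM, and its basophil and mast cell markers 38.6 against at most 10.7 CPM. Red cell markers summed to at least 393 CPM in every library, and CD8 T cell markers to 5.82 to 8.85 CPM. These marker values are CPM of the unscaled library total. The part of these other cells in the cytokine values was not tested, and the values of Il21 and Csf2 are also given without WT Tconv replicate 3. Without that library the edgeR log2 fold changes (HP1α KO Tconv over WT Tconv) were −0.14 for Ifng, 0.033 for Il4 and −0.21 for Il13. In such bulk samples, fewer cytokine-producing cells and less transcript per cell cannot be told apart.

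The 9 genes ranged from 9614 counts in 1 library (Tnf) to none (Il5). Tnf and Ifng had at least 3004 counts in each library, Il21 had 184 to 934, Il4, Csf2, Il2, Il17a and Il13 had 11 to 162, and Il5 was at the detection floor in all 6 libraries. Il5 was the only gene near the floor, defined as a mean under 10 counts in both groups, and the only one with 3 counts or fewer in any library.

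**Figure D1:**
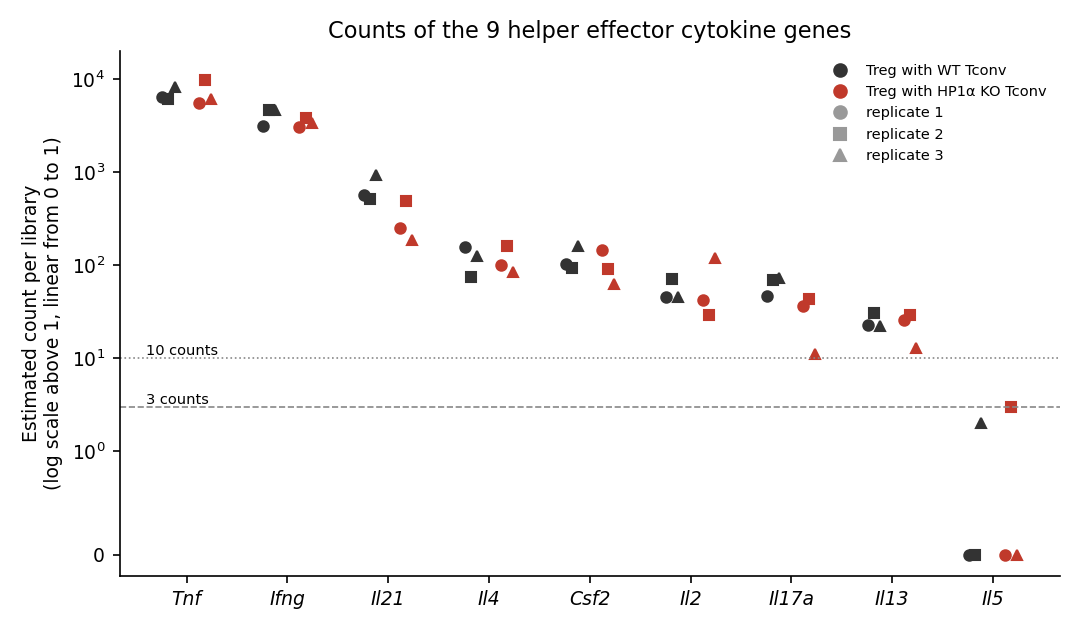
Estimated count of each cytokine gene (x axis) in each of the 6 libraries (y axis, log scale above 1 and linear from 0 to 1); black is Treg with WT Tconv, red is Treg with HP1α KO Tconv, and circles, squares and triangles are replicates 1, 2 and 3. Dashed and dotted lines mark 3 and 10 counts, and only Il5, with 0 to 3 counts, lies at or under them.

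Levels of different genes were compared as CPM per kb of the annotated transcript, averaged over the 6 libraries. On this scale Tnf stood at 43.2, at percentile 90.9 of 16935 protein-coding genes, and Ifng at 31.4, at percentile 87.3. A gap of 15.6-fold separated Ifng from the next gene, Il4, at 2.01 CPM per kb and percentile 45.2. Il21 (1.57) and Csf2 (1.39) came next, then Il2 (0.540), Il17a (0.396) and Il13 (0.204 CPM per kb, percentile 31.5), and Il5 was last at 0.00511 CPM per kb. Ranges over the libraries overlapped between each pair of neighbours in this order except between Ifng and Il4 and between Il13 and Il5. Genes further apart in the order were separated in part: the lowest library of Il4 (1.32 CPM per kb) lay above the highest of Il2 (1.19), Il17a (0.619) and Il13 (0.266), and the lowest of Csf2 (0.892) and of Il21 (0.678) lay above the highest of Il17a and Il13. Tnf was higher than Ifng in 5 of 6 libraries.

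Across groups, none of the 8 genes that passed the filter on low counts reached an adjusted p under 0.05 in edgeR's quasi-likelihood test, where 0 of 18321 genes did so (0.0%). At an unadjusted p under 0.05 in edgeR, 1 of the 8, Il21, was called, in the lower direction, against 7.52% of all genes called lower; in either direction it was 12.5% of the 8 against 14.5% of all genes. In 2 of the 8, Il21 and Il17a, every HP1α KO Tconv library lay below every WT Tconv library, against 11.6% of all genes separated in that direction. Counting both directions, 25.0% of the 8 genes and 23.0% of all genes were separated, so both shares of the cytokine genes were near those of the whole table. DESeq2, the tool used by the study, gave an adjusted p for 3 of the 8 (Ifng, Il21 and Tnf), which was under 0.05 for Il21, against 3.03% of 12097 genes called lower. A rule that also asks for an absolute log2 fold change above 1 would not call Il21. Fitted log2 fold changes (HP1α KO Tconv over WT Tconv) ran from −0.97 to 0.40 over the 8 genes, with 3 above and 5 below 0 and a median of −0.060, against −0.0085 over all genes tested.

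**Figure D2:**
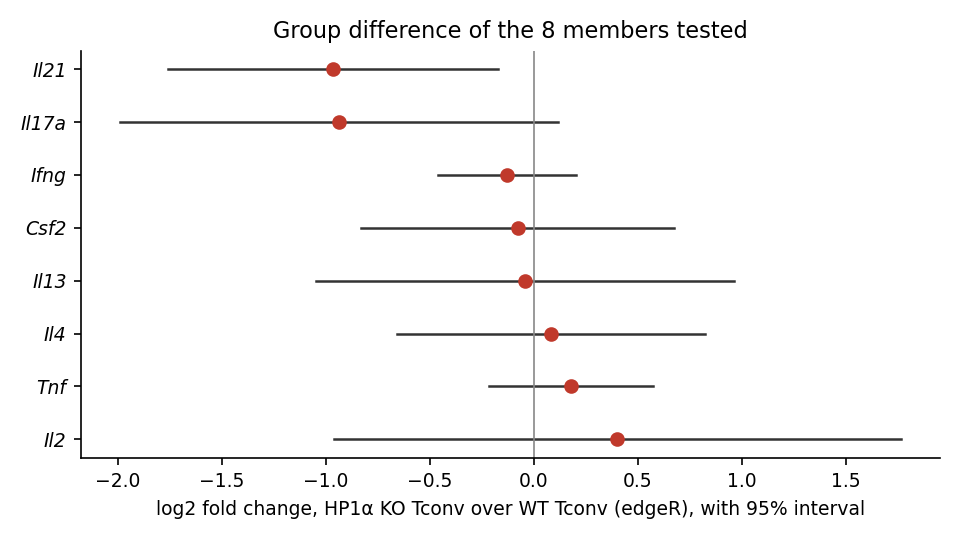
Fitted log2 fold change of each of the 8 genes tested (points; x axis, HP1α KO Tconv over WT Tconv) with its 95% interval from edgeR (lines), 3 libraries per group. The interval of Il21, −1.76 to −0.17, is the only one that does not include 0, before any adjustment for the number of genes.

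Il21 encodes interleukin-21, a product of follicular helper and Th17 cells that acts on B cells, CD8 T cells and Th17 cells themselves. It was counted 560, 513 and 934 times in replicates 1, 2 and 3 of Treg with WT Tconv and 253, 491 and 184 times in those of Treg with HP1α KO Tconv. In CPM these were 5.83, 5.31 and 7.98 against 2.78, 4.91 and 2.08, means of 6.37 ± 1.42 and 3.26 ± 1.47 (SD, n = 3). The groups did not overlap, but KO replicate 2 lay close to WT replicate 2, with exact Poisson 95% intervals of 4.49 to 5.37 and 4.86 to 5.79 CPM that overlapped. Its log2 fold change was −0.97 (SE 0.333, 95% interval −1.76 to −0.17), with an unadjusted p of 0.0238 and an adjusted p of 0.274 in edgeR's quasi-likelihood test, rank 1586 of 18321 genes by p. DESeq2 gave the same size, −0.97, with an adjusted p of 0.0232. Under edgeR and limma-voom settings the adjusted p stayed between 0.147 and 0.478, and Il21 was lower in the HP1α KO Tconv group in all 20 alternative fits. The DESeq2 call was lost without any 1 of 5 libraries and was stronger without KO replicate 2. Its adjusted p was 0.145, 0.0956 and 0.245 without WT replicates 1, 2 and 3, 0.172 without KO replicate 1 and 0.171 without KO replicate 3, and fell to 1.42e-05 without KO replicate 2. Without WT replicate 3, the library with most other-cell markers, the edgeR log2 fold change was −0.77 (adjusted p = 0.459).

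The Il21 gene lies on mouse chromosome 3 (GRCm39, 37276908 to 37286785, minus strand, 5 exons), 96800 bases from Il2. The long non-coding gene Gm12534 runs on the opposite strand over 8.92% of its exonic bases and had 2 to 25 counts per library, and the strand setting of the counting is not given in the sources used here. The 250 bases before the RefSeq start of Il21, shown because it is one of the genes with separated groups, were compared with those of Il17a, the other such gene, and of Ifng and Tnf, the most abundant. Coordinates are from an exact match of the RefSeq sequence to GRCm39. Capitals mark a match on either strand to the core promoter letters TATAAA, to TGANTCA, which factors of the AP-1 family bind, to TTCNNNGAA, the palindrome of STAT proteins, to AGGTCA, known as a nuclear receptor recognition site, or to TCACACC, which T-box factors such as T-bet recognise.
Il21, chr3:37286786-37287035, minus strand: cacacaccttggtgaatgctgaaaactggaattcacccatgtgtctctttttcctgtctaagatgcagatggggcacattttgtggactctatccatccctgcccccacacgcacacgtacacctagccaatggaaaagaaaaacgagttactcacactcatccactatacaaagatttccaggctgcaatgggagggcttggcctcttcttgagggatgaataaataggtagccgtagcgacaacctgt
Il17a, chr1:20800879-20801128, plus strand: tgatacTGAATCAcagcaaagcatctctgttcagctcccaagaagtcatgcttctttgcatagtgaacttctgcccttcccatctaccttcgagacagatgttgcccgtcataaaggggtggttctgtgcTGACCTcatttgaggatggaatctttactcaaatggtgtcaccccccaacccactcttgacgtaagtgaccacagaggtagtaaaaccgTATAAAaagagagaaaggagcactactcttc
Ifng, chr10:118276701-118276950, plus strand: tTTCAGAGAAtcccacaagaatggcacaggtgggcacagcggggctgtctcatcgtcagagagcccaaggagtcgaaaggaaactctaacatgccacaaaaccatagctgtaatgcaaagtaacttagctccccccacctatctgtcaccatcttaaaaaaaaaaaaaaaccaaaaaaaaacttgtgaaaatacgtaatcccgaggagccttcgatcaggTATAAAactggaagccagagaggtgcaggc
Tnf, chr17:35420984-35421233, minus strand: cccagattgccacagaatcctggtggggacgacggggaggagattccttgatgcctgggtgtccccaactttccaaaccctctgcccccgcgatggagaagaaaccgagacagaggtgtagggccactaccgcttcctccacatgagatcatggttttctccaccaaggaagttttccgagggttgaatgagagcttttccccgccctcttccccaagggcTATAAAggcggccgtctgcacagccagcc

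None of these letters occurred in the Il21 window. Counting back from the start, Il17a held the AP-1 letters at −244, AGGTCA at −120 and TATAAA at −31. Ifng held the STAT letters near the far end of its window and TATAAA at −30, and Tnf held TATAAA at −29. The shorter core GGAAA, bound by NFAT factors and not capitalised, occurred 3 times in Il21 and Tnf, once in Ifng and not in Il17a. Among 32851 RefSeq promoter windows of 250 bases, 12.4% held TATAAA, 6.75% TGANTCA, 7.02% TTCNNNGAA, 14.0% AGGTCA, 3.33% TCACACC and 55.6% GGAAA. The 9 genes together held TATAAA in 5, namely Ifng, Tnf, Il2, Il17a and Il13. The Csf2 window ended 232 bases before the start of Csf2 in GENCODE, so the bases just before that start were not searched. Il4 was searched in 2 windows, which ended 4 and 1331 bases from its GENCODE start. A match is a description of the letters and not of a bound site.

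Il17a, the signature cytokine of Th17 cells, which recruits neutrophils through epithelial cells, was much scarcer. Its counts were 47, 70 and 72 in Treg with WT Tconv and 36, 43 and 11 in Treg with HP1α KO Tconv. These correspond to 0.489, 0.725 and 0.615 CPM (mean 0.610 ± 0.118, SD, n = 3) and to 0.396, 0.430 and 0.125 CPM (mean 0.317 ± 0.167). The groups were separate, although WT replicate 1 and KO replicates 1 and 2 lay within each other's counting intervals, and KO replicate 3 was the lowest by far. The log2 fold change was −0.94 (SE 0.459, 95% interval −1.99 to 0.12), with an adjusted p of 0.399 in edgeR, and DESeq2 gave no adjusted p because its filter on low means removed the gene. Without KO replicate 3 the value shrank to −0.56. Il17f, the related cytokine gene 42648 bases away on chromosome 1, was rarer still, with 18, 21 and 26 counts against 15, 14 and 3 counts and a log2 fold change of −0.87 (SE 0.590, edgeR adjusted p = 0.537). On the other side, Pkhd1 had at most 2 counts.

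**Figure D3:**
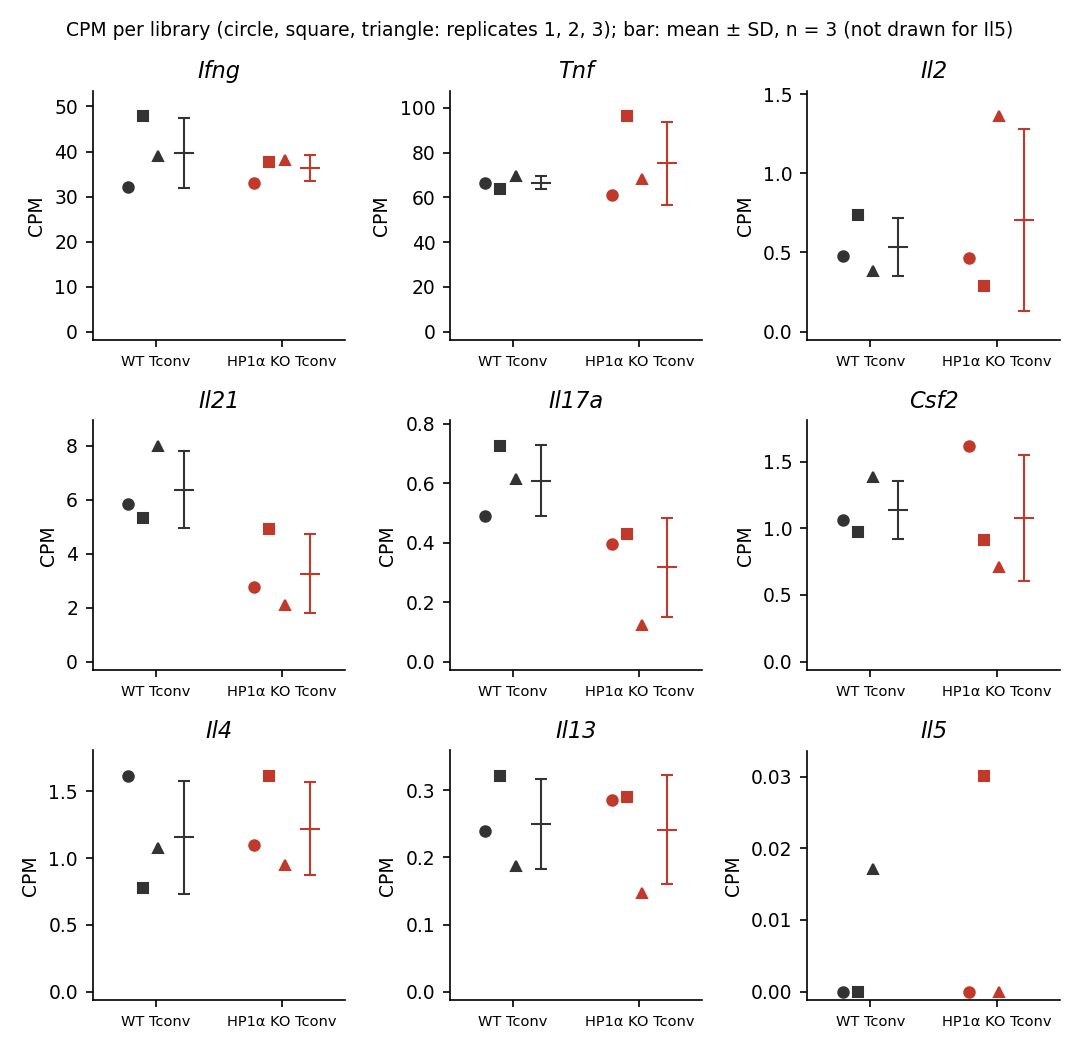
CPM of each cytokine gene in the 6 libraries (y axes start at 0 and differ between panels); symbols are replicates 1, 2 and 3, and bars give the mean ± SD of the 3 libraries of a group except for Il5. Il21 and Il17a are the genes in which the 2 groups do not overlap, and the highest value of Il2 comes from KO replicate 3 and that of Tnf from KO replicate 2.

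Ifng encodes interferon-γ, the Th1 cytokine that activates macrophages and raises antigen presentation. Its counts were 3090, 4618 and 4572 in Treg with WT Tconv and 3004, 3771 and 3366 in Treg with HP1α KO Tconv, or 32.2, 47.8 and 39.1 CPM (39.7 ± 7.85, SD, n = 3) against 33.0, 37.7 and 38.1 CPM (36.3 ± 2.83). All KO values fell inside the WT range. The log2 fold change of −0.13 (95% interval −0.46 to 0.20, edgeR adjusted p = 0.713) leaves room for a change of Ifng between 0.727 and 1.15 times the WT Tconv level. At this depth counting adds little to the spread, and the SD among WT libraries was 12.7 times that expected from counting alone. The annotated non-coding gene Gm49751 shares 25.9% of the exonic bases of Ifng on the same strand, so reads in the shared part could have been divided between them. Gm49751 measured 4.38 ± 1.23 and 5.95 ± 1.10 CPM in the WT and KO groups, and the sum of both genes was 44.1 ± 8.33 and 42.3 ± 3.08 CPM.

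Tnf, tumour necrosis factor, a membrane-bound and secreted inflammatory cytokine whose receptor 2 is a known growth signal for Treg, was the most abundant of the 9. It was counted 6387, 6137 and 8122 times with WT Tconv and 5554, 9614 and 6038 times with HP1α KO Tconv. The CPM were 66.5, 63.5 and 69.4 (66.5 ± 2.92, SD, n = 3) against 61.1, 96.2 and 68.4 (75.2 ± 18.5). Among the 6 libraries, KO replicate 2 was high, KO replicate 3 lay inside the WT range and KO replicate 1 lay just below it. Its log2 fold change was 0.18 (95% interval −0.22 to 0.57, edgeR adjusted p = 0.658) and turned to −0.038 without KO replicate 2. The SD within the KO group was 20.7 times that expected from counting. Tnf sits on chromosome 17 between its family members Ltb, 3061 bases away, and Lta, 1158 bases away. Ltb, at 413 ± 18.0 and 469 ± 96.5 CPM, had a log2 fold change of 0.19, and Lta, at 10.3 ± 0.845 and 12.7 ± 2.10 CPM, of 0.30 (edgeR adjusted p = 0.383). In CPM, Ltb like Tnf was highest in KO replicate 2, and Lta in KO replicate 3.

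Il2 encodes interleukin-2, the T cell growth factor that Treg take up but scarcely make. The Il2 counts were 46, 71 and 45 with WT Tconv and 42, 29 and 120 with HP1α KO Tconv. In CPM, Il2 measured 0.479, 0.735 and 0.384 CPM (0.533 ± 0.182, SD, n = 3) against 0.462, 0.290 and 1.36 CPM (0.704 ± 0.574). The lowest and the highest of the 6 values were both in the KO group, a range of 4.68-fold. The exact Poisson interval of KO replicate 3, 1.13 to 1.63 CPM, lay above those of the 5 other libraries. With that library the log2 fold change was 0.40 (95% interval −0.96 to 1.76, edgeR adjusted p = 0.786), and without it −0.50. A stretch of 207 bases, 18.1% of the Il2 transcript, is 99.5% identical to sequence in transcripts of Pdxdc1 and Ntan1, so reads from those genes could be placed on Il2 and its low counts are uncertain to that extent. Adad1 overlaps Il2 on the opposite strand, shares no exonic bases with it and had 0 to 2 counts, and Bltp1, the nearest protein-coding gene without overlap on the side away from Il21, had a log2 fold change of −0.086.

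Csf2 encodes the growth factor GM-CSF, which drives myeloid cells and marks pathogenic helper cells. Its counts were 102, 94 and 162 with WT Tconv and 147, 91 and 63 with HP1α KO Tconv, equal to 1.06, 0.973 and 1.38 CPM (1.14 ± 0.216, SD, n = 3) and 1.62, 0.911 and 0.714 CPM (1.08 ± 0.475). The KO libraries held both the highest and the lowest value. The log2 fold change was −0.078 (95% interval −0.83 to 0.67, edgeR adjusted p = 0.933). It turned to 0.087 without WT replicate 3, to 0.032 and 0.15 without KO replicates 2 and 3, and was −0.47 without KO replicate 1. Il3, the growth factor gene 15636 bases from Csf2, had 5 counts in WT replicate 3 and 0 in every other library, and P4ha2, its neighbour on the other side, had 9 to 25 counts. Gm57329 overlaps 18.6% of the exonic bases of Csf2 on the opposite strand and was not analysed here.

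The 3 type 2 cytokine genes lie together on chromosome 11, with Il4 12655 bases from Il13 and the DNA repair gene Rad50 between Il13 and Il5. Il4 encodes the cytokine that directs Th2 differentiation and class switching, and was counted 155, 75 and 126 times against 100, 161 and 84 times. Its CPM were 1.61, 0.777 and 1.08 (1.16 ± 0.424, SD, n = 3) in the WT group and 1.10, 1.61 and 0.951 (1.22 ± 0.346) in the KO group. These ranges coincided almost fully, and the log2 fold change was 0.081 (95% interval −0.66 to 0.82, edgeR adjusted p = 0.929). Kif3a, on the opposite strand, overlaps 14.6% of the exonic bases of Il4 and had 383 to 568 counts. Septin8, beside Il4, had 3245 counts in WT replicate 3 and 920 to 1115 in the other libraries, with a log2 fold change of −0.56 (edgeR adjusted p = 0.604).

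Il13, which acts on mucus, smooth muscle and alternatively activated macrophages, was counted 23, 31 and 22 times against 26, 29 and 13 times. In CPM this was 0.239, 0.321 and 0.188 (0.249 ± 0.0671, SD, n = 3) against 0.286, 0.290 and 0.147 (0.241 ± 0.0814). The groups overlapped, with a log2 fold change of −0.042 (95% interval −1.05 to 0.96, edgeR adjusted p = 0.975). The interval reaches from 0.484 to 1.95 times the WT Tconv level.

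Il5, the eosinophil growth factor, was counted 0, 0 and 2 times in Treg with WT Tconv and 0, 3 and 0 times in Treg with HP1α KO Tconv. All 6 values were at or under the floor of 3 counts, so no fold is given and a difference was not detectable at this depth. Gm12214, not analysed here, overlaps 27.1% of the exonic bases of Il5 on the opposite strand. The flanking genes Rad50 (4656 to 5929 counts) and Irf1 (51785 to 95507 counts) were well covered, with log2 fold changes of 0.011 and −0.11. The 4 Il5 libraries at 0 counts each allow up to 0.0311 to 0.0340 CPM at the floor, and these limits cover counting error only.

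Summed over the 9 genes, the CPM (of the unscaled library total) were 108, 118 and 118 in Treg with WT Tconv and 101, 146 and 113 in Treg with HP1α KO Tconv, means of 114.6 ± 5.66 and 120.1 ± 23.6 (SD, n = 3). Tnf and Ifng made up 90.3% to 95.2% of this sum in each library. The difference of 5.48 CPM was well within the spread of the KO libraries and was −7.67 CPM without KO replicate 2. No single library was high or low for all of the genes: leaving out Il5, KO replicate 3 was the lowest for 4 of 8 (Il21, Il17a, Csf2, Il13) and the highest for Il2, and WT replicate 2 was the highest for 3 and the lowest for Il4.

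All 9 genes carried the decay pentamer ATTTA in the 3′ untranslated region, as did 67.4% of 20827 mouse coding genes, and 7 of the 9 carried it at least 5 times, against 24.0% of coding genes. The longer nonamer TTATTTATT, a preferred site of the decay protein tristetraprolin, was present in 5 of the 9 against 8.34% of coding genes. Tnf held 5 copies, 4 of them in the overlapping run shown, and Csf2 held 4 in an overlapping run, and 0.739% of coding genes held 3 or more. A window of 30 bases is shown from each of these 5 genes, with the nonamer in capitals (GRCm39, minus strand, sequence as in the mRNA with T for U).
Tnf, chr17:35418650-35418679: ttaTTATTTATTTATTATTTATTTATTtgc
Csf2, chr11:54138149-54138178: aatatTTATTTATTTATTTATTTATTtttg
Il2, chr3:37175047-37175076: tttatctgaaaTTATTTATTatattgaatt
Il21, chr3:37276975-37277004: taacttaatgaTTATTTATTatgtatttgg
Il13, chr11:53522568-53522597: tcttcttgatcTTATTTATTatggttgtgt

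Tnf, the gene richest in the nonamer, was also the most abundant, while Csf2 with 4 copies was at 1.39 CPM per kb and Ifng with none at 31.4. The part of mRNA decay in these levels was not tested. Il21 and Il17a, the genes with separated groups, held 1 and 0 copies. Per kb of this region, ATTTA was densest in Csf2 (28.4) and least dense in Il21 (3.49), against a median of 1.38 over 19715 coding genes.

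Several receptor genes of these cytokines were more abundant than any of the 9, with Il2rb at 357, Il2rg at 296 and Ifngr1 at 230 CPM per kb against 43.2 for Tnf. Of 17 receptor genes listed, 14 were tested, with a median log2 fold change of −0.034. None passed an adjusted p under 0.05 in edgeR, where 0 of 18321 genes did, or in DESeq2, which called 4.35% of 12097 genes. At an unadjusted p under 0.05 in edgeR, 1 receptor gene was called (7.14%, against 14.5% of all genes). The highest per kb were Il2rb, the signalling chain of the IL-2 receptor (1440 ± 83.9 and 1550.5 ± 33.6 CPM), the shared chain Il2rg (488 ± 32.3 and 502 ± 39.1) and the interferon-γ receptor chain Ifngr1 (499.8 ± 80.9 and 472 ± 36.8). At the smallest unadjusted p were Tnfrsf1a, TNF receptor 1, with a log2 fold change of 0.25 (edgeR adjusted p = 0.304), and Ifngr2 with −0.22 (adjusted p = 0.539). Il21r, the receptor of IL-21, measured 274.9 ± 7.61 and 275.1 ± 27.9 CPM, and was chosen for mention after its values were seen.

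Among 22 other T cell cytokine genes, 18 were tested, with a median log2 fold change of 0.024, and 1 was higher and 2 were lower at an unadjusted p under 0.05 in edgeR, 16.7% against 14.5% of all genes. The inhibitory cytokine gene Il10 measured 184 ± 18.2 CPM with WT Tconv and 128 ± 26.7 CPM with HP1α KO Tconv. Its log2 fold change was −0.52, and its adjusted p was 0.246 in edgeR and 0.0180 in DESeq2. Tnfsf11, encoding RANKL, had a log2 fold change of 0.30 (edgeR adjusted p = 0.246). Ltb and Areg, the tissue repair factor amphiregulin, were with Il10 the highest per kb, and Areg measured 155 ± 14.6 and 114 ± 45.6 CPM.

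The transcription factors that direct helper lineages and the regulators of mRNA decay had medians slightly below 0. In the first list, 18 of 18 were tested with a median of −0.14, 1 higher and 4 lower at an unadjusted p under 0.05 in edgeR, 27.8% against 14.5% of all genes. Rora, a Th17 factor, measured 382 ± 19.2 and 264 ± 25.8 CPM, a log2 fold change of −0.53 with an adjusted p of 0.209 in edgeR and 0.000130 in DESeq2, and Ahr had −0.22 (edgeR adjusted p = 0.251). Batf and Maf, both among the 3 highest per kb, had log2 fold changes of 0.043 and −0.33. In the second list, 11 of 11 were tested with a median of −0.23. At an unadjusted p under 0.05 in edgeR, none were higher and 4 lower, 36.4% against 14.5% of all genes. Over all 18321 genes, 1279 were higher and 1377 lower. The groups were separated for 63.6% of the second list (1 higher and 6 lower), against 23.0% of all genes. This share was 27.8% for the transcription factors and for the other T cell cytokines, and 14.3% for the receptors. Zfp36, which encodes tristetraprolin, was the highest at 349 ± 14.7 and 381 ± 41.2 CPM (log2 fold change 0.13), and its relatives Zfp36l2 and Zfp36l1 had −0.45 and −0.41. Hnrnpd, the ARE-binding protein AUF1, had −0.35 (adjusted p 0.213 in edgeR and 0.0395 in DESeq2) and Rc3h1, roquin-1, had −0.23 (edgeR adjusted p = 0.242).

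**Figure D4:**
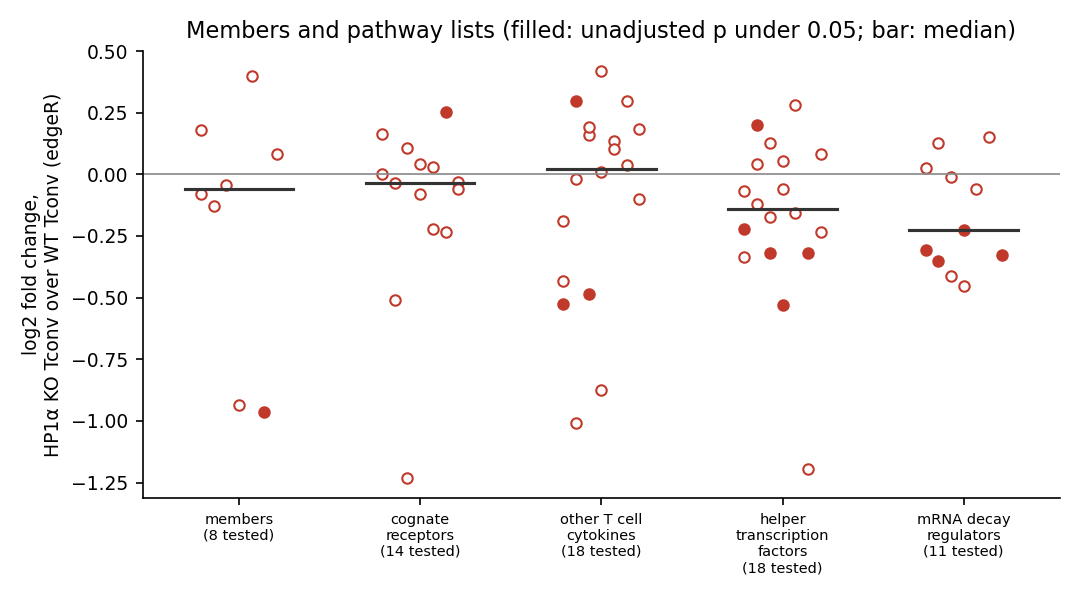
Fitted edgeR log2 fold change (y axis, HP1α KO Tconv over WT Tconv) of each gene tested among the 9 cytokines and in the 4 other lists; filled points have an unadjusted p under 0.05 and bars are medians. Medians run from −0.23 for the mRNA decay regulators to 0.024 for the other T cell cytokines.

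For each cytokine gene averaging 100 counts or more, the genes whose profile over the 6 libraries lay closest were found as the smallest root mean square difference of centred log2 CPM, a description with no test over 13244 genes. Closest to Il21 were Gm33858 (0.175) and Cx3cr1, a chemokine receptor (0.210). Cx3cr1 measured 4.71, 4.41 and 5.08 CPM with WT Tconv and 2.85, 3.62 and 1.51 CPM with HP1α KO Tconv, a likeness to Il21 that follows from the choice. Closest to Ifng were Eif4ebp3 (0.0558) and C130013H08Rik (0.0663), and to Tnf Zfp664 (0.0488) and Hsd17b11 (0.0529). Il4 lay closest to Ift74 (0.124) and Gm7488 (0.145), and Csf2 to Atf5 (0.181) and Hoxb4 (0.186).

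**Figure D5:**
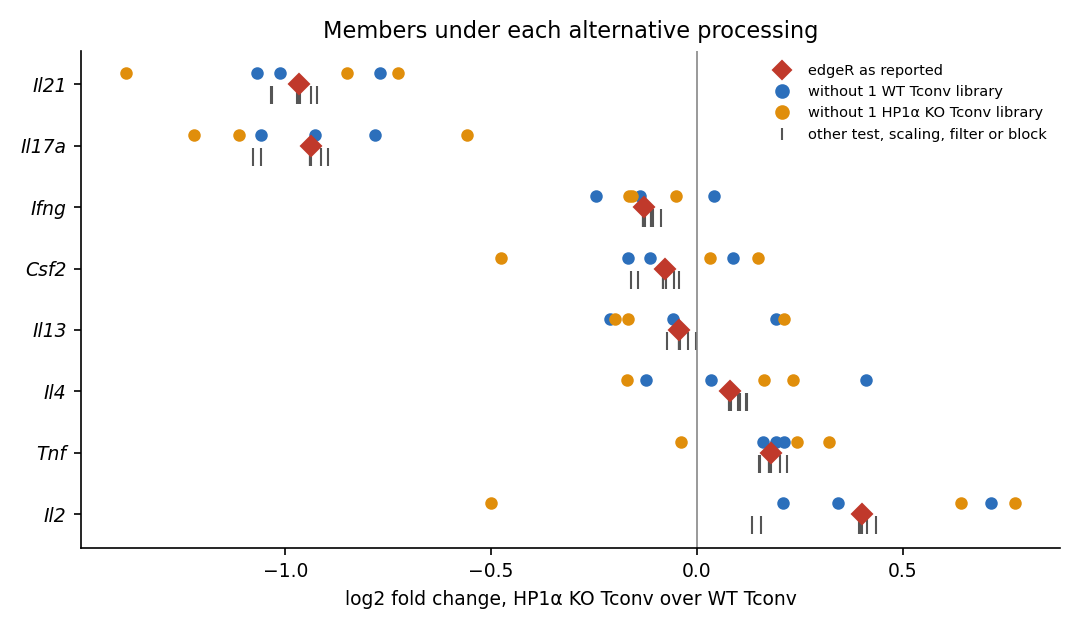
log2 fold change of each tested cytokine gene (x axis, HP1α KO Tconv over WT Tconv) as reported (diamonds), without 1 library (blue, a WT Tconv library; orange, an HP1α KO Tconv library) and under other tests, scalings, filters or the replicate block (ticks). Il21 and Il17a stay below 0 throughout, whereas the 6 other genes have values on both sides of 0.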

How the data were processed

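RNA of 6 Treg libraries, 3 per group, was sequenced by the authors from stranded total RNA libraries, aligned with STAR and quantified with Salmon on the GRCm39 build with Ensembl annotation 107, and deposited as estimated counts per gene in whole numbers. The submitters' processing notes name STAR and Salmon; the strand setting is not given in the sources used here. Here the counts were tested as deposited with edgeR 4.0.16 (quasi-likelihood, TMM, filterByExpr, Benjamini-Hochberg over 18321 genes); DESeq2 1.42.0, limma-voom (limma 3.58.1), other scalings, filters, a replicate block and leave-one-out fits were alternatives. Scripts were tested on simulated data, in which DESeq2 recovered more of the changed genes than edgeR and also made more false calls. CPM use TMM-scaled totals, except marker CPM and the cytokine sum, which use unscaled totals; intervals and the floor of 3 counts cover counting error only. The 9 genes and all lists were chosen with earlier results of these data known. Named genes were the 9 cytokines, their nearest protein-coding neighbours without overlap, the 3 most abundant per kb and the 2 of smallest p in each list, and the 2 nearest profiles of each cytokine gene with a mean of at least 100 counts; 1 gene so named is not reported here. Positions, overlaps and 3′ untranslated regions come from GENCODE release M39; promoter sequences from RefSeq (table build GRCm38.p6) were placed on GRCm39 by exact match. Cdc5lrt10, a neighbour of Ifng, was not analysed here; Dyrk2, the other neighbour of Ifng, had a log2 fold change of −0.096 and Cetn4, beside Il21, of −0.15.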

Additional observations from a re-analysis of the deposited data

How the results depend on the processing

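Of 118 alternative fits of the 8 genes tested, 106 kept direction with no call (5 of them DESeq2 fits that gave no adjusted p), 10 turned the direction and 2 brought Il21 past it. Ifng moved to 0.041 without WT Tconv replicate 2 (range without 1 library −0.25 to 0.041), Il2 to −0.50 without KO replicate 3 (−0.50 to 0.77), Il4 to −0.12 without WT replicate 2 and −0.17 without KO replicate 2 (−0.17 to 0.41), Il13 to 0.19 without WT replicate 2 and 0.21 without KO replicate 3 (−0.21 to 0.21), Tnf to −0.038 without KO replicate 2 (−0.038 to 0.32), and Csf2 to 0.087, 0.032 and 0.15 without WT replicate 3, KO replicate 2 and KO replicate 3 (−0.47 to 0.15). The cytokine sum went from 5.48 to −7.67 CPM without KO replicate 2, was 15.1 CPM without KO replicate 1, and was 2.17 and 1.87 CPM with TMM and RLE totals. Il21 ran from −1.39 to −0.73 and Il17a from −1.22 to −0.56 without 1 library, and Il21 passed under DESeq2 (−0.97) and under DESeq2 without KO replicate 2 (−1.39). Genes called in all numbered 0 in the edgeR test as reported, where 1279 were higher and 1377 lower at an unadjusted p under 0.05, 526 with DESeq2, 1 with upper quartile scaling, 38 with no filter, 0 to 2 without 1 library, and 317, 273 and 179 with DESeq2 without WT replicates 1, 2 and 3 and 689, 1413 and 367 without KO replicates 1, 2 and 3, an alternative chosen after seeing the data. Of the cytokine genes, DESeq2 called 1, and 1 again without KO replicate 2 and 0 without any other library. DESeq2 called 1 gene each among the other cytokines (of 15 with an adjusted p), transcription factors (of 17) and decay regulators (of 11) and 0 of 13 receptors, against 4.35% of all 12097 genes, and the edgeR test with no filter called 1 transcription factor; the cause was not tested. With the replicate number as a block, edgeR called 1 gene in all, and Il21 had −1.03 (adjusted p = 0.432) and Il17a −1.06 (0.463). Deviations from the group means correlated at −0.0420, 0.182 and 0.117 between same-numbered libraries. Between libraries of unlike number they correlated at −0.218 to 0.121. With 3 libraries per group these values cannot decide whether the numbers pair the libraries. With 13 to 31 counts for Il13 and 11 to 72 for Il17a, depth limits these 2 genes more than the others tested.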
